A study of Mus musculus with 7 samples.

Results

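The 10 Toll-like receptor genes of the mouse examined here were Tlr1, Tlr2, Tlr3, Tlr4, Tlr6, Tlr7, Tlr8, Tlr9, Tlr11 and Tlr13. They were chosen by name, and all 10 were found among the 55491 gene rows of a single-cell count matrix. The cells came from the tumour-bearing hemisphere of mice implanted with 50000 CT-2A glioma cells, a mouse glioma line, and were sorted alive as CD45+ and/or CD11b+ cells after freezing and thawing. In the KO group, 4 mice carried Sall1CreERT2 together with Siglecefl/fl. In the WT group, 3 mice carried Siglecefl/fl without the driver, so both groups had the floxed alleles. All mice were 8 to 12 weeks old and all received tamoxifen at 2.5 mg per injection, daily from day 7 to day 21 and every other day afterwards. Siglece encodes Siglec-E, an inhibitory receptor for sialic acids. Sall1 marks microglia among brain macrophages, so the deletion is aimed at microglia, and blood-derived cells of the tumour are not its intended target.

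Toll-like receptors are membrane proteins of innate immunity that bind microbial molecules, and some host molecules, through leucine-rich repeats. Tlr1, Tlr2, Tlr4 and Tlr6 act at the cell surface on lipopeptides and lipopolysaccharide, while Tlr3, Tlr7, Tlr8, Tlr9 and Tlr13 act in endosomes on nucleic acids and Tlr11 responds to profilin. They signal through Myd88, or through Ticam1 for Tlr3 and part of Tlr4 signalling, to NF-kB and interferon regulatory factors. In the brain, microglia and incoming myeloid cells are their best known carriers.

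The genes lie on 7 chromosomes of GRCm38, the same build as mm10, by the GENCODE annotation. Tlr2 is at chr3:83836272-83841767 on the minus strand, Tlr4 at chr4:66827584-66930284 on the plus strand, Tlr3 at chr8:45395665-45411080 on the minus strand, Tlr9 at chr9:106222598-106226883 on the plus strand and Tlr11 at chr14:50357914-50363663 on the plus strand. Tlr1 and Tlr6 are neighbours on the minus strand of chromosome 5, at chr5:64924679-64933563 and chr5:64952031-64960097. Tlr8 and Tlr7 are neighbours on the minus strand of the X chromosome, at chrX:167242696-167264329 and chrX:167304929-167330558, and Tlr13 lies elsewhere on X at chrX:106143204-106160493 on the plus strand.

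RefSeq promoter windows of GRCm38.p6, each 300 bases from 250 before to 50 after a RefSeq start, were at hand for 8 of the 10 genes, in 10 entries; Tlr4 and Tlr7 had none. Those of 3 genes are shown because the results turn on these genes: Tlr2 for the comparison of the genotypes, and Tlr3 and Tlr11 because both were highest in cDC1 cells. They are chr3:83841559-83841858, chr8:45410331-45410630 and chr14:50357664-50357963, each written on the strand of its gene. The RefSeq start is not the end of the GENCODE gene given above for Tlr2 and Tlr3: it lies inside both genes, and the Tlr3 window is wholly inside the gene. Capitals mark matches to the NF-kB consensus in Tlr2 and Tlr3 and to the interferon-stimulated response element, read as GAAA, any 2 bases and GAAA, in Tlr11.
Tlr2 promoter: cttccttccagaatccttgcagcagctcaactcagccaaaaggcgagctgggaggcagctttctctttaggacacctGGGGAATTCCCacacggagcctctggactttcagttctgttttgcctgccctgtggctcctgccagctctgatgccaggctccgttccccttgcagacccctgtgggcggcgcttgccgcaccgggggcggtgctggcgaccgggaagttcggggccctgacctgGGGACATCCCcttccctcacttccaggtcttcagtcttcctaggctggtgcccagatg
Tlr3 promoter: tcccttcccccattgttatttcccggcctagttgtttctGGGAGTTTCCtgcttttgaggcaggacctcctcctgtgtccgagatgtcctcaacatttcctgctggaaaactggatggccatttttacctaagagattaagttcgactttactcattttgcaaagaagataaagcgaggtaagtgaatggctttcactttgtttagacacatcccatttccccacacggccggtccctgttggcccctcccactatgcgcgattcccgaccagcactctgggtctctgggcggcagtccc
Tlr11 promoter: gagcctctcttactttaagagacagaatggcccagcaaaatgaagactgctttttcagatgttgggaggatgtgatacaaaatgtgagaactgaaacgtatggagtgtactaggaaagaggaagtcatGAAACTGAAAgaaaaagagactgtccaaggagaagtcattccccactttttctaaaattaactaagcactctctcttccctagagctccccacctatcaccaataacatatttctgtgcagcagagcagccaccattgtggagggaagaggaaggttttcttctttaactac
Both strands were searched for the NF-kB consensus, this element and the AP-1 motif TGANTCA. The Tlr2 window matched the NF-kB consensus at 173 and 172 bases before the RefSeq start, which overlap, and at 8 bases before it. Tlr3 matched the same consensus at 211 bases before its RefSeq start, and Tlr11 matched the interferon element at 122 bases before its own. Among the windows not shown, Tlr6 matched the interferon element at 116 and 110 bases before a RefSeq start, and Tlr9 matched TGANTCA at 58 bases before. Those of Tlr1, Tlr8 and Tlr13 had no match. Among 32851 promoter windows of the same length, 8.46% held the NF-kB consensus, 3.44% the interferon element and 7.81% TGANTCA. A match describes letters in the window and is no evidence of binding.

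The 7 libraries, 1 per mouse, held 1410 to 5856 cells and 16037214 to 38966377 UMIs, with a median of 4479 to 9554 UMIs per cell. Of 28178 distinct cell barcodes, 460 occurred in more than 1 library. The authors' annotation has 23 values, joined here into 9 classes. Levels are given as CPM, the UMIs of a gene per 1000000 UMIs of the same cells, taken for each mouse and averaged over mice with at least 20 such cells. UMIs were counted at the 5′ end and not scaled by transcript length. Among fixed markers, 7 of 8 for microglia, 8 of 12 for monocyte-derived cells, 5 of 10 for tumour or stromal cells and all 7 for plasmacytoid dendritic cells were highest in the class they name. Of 11 dendritic cell markers, 8 were highest in conventional dendritic cells or, for Cd209a, in mo-DCs. Siglece in microglia was at 10.7, 19.6, 0 and 0 CPM in KO mice 1 to 4, from 2, 1, 0 and 0 UMIs, and at 36.1, 45.9 and 18.6 in WT mice 1 to 3, from 20, 19 and 7 UMIs. KO mouse 2 overlapped WT mouse 3. The labels do not give the floxed exons, so UMIs counted at the 5′ end may come from outside the deleted part. In monocyte-derived cells, Siglece was at 41.0 to 48.7 in KO mice and 26.6 to 52.9 in WT mice.

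Tlr2, which pairs with Tlr1 or Tlr6 to bind bacterial lipopeptides, had the most UMIs of the 10 genes, 15913 in all, and monocyte-derived cells held 83.7% of them. Its level was highest in Monocytes (P1-P2), at 338, 280.4, 426 and 443 CPM in the KO mice and at 649.9, 443 and 388 in the WT mice. The mean of 424 ± 116 (SD, n = 7) was followed by Microglia (Low-quality/activated) at 260 ± 128 (n = 5), Macrophages (P3) at 253 ± 53.7 (n = 7), Microglia at 192 ± 32.0 (n = 3), Macrophages (P5) at 173 ± 30.5 (n = 7) and Macrophages (Proliferating) at 133 ± 29.5 (n = 6). For every gene the Microglia mean covers WT mice alone. Low-quality microglia averaged 171 in 3 WT mice, below that Microglia mean, and 392 in 2 KO mice. Monocytes were above the low-quality microglia in 4 of the 5 mice that had both, while the order of low-quality microglia and Macrophages (P3) was not kept, with the former higher in 2 of 5. The mo-DCs, dendritic cells of monocyte origin by their label, had 75.6 ± 16.4 (n = 7), below the proliferating macrophages in 6 of 6 mice. All 16 other annotations averaged 15.5 or less, cDC1 cells 7.83 and pDCs 10.2 included. Over the 23 annotations the genes most like Tlr2 included, by Pearson r of log2(mean CPM + 1) among 10996 genes, Csf1r, the receptor of the macrophage growth factor, at 0.97 and the Fc receptor Fcgr1 at 0.97.

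Tlr1 and Tlr6, the partners of Tlr2, were low. Tlr1 had 33.8 ± 17.7 (n = 5) in low-quality microglia from 22.5 UMIs, 26.1 ± 6.14 (n = 7) in Macrophages (P5), 22.8 ± 8.93 (n = 3) in Microglia and 19.5 ± 5.83 (n = 7) in Macrophages (P3). Neighbours in this order did not hold it across mice, apart from Macrophages (P5) over Microglia in 3 of 3. Among T cells Tlr1 was highest in Tregs, at 3.16, 21.9, 19.3 and 19.7 in the KO mice and 15.3 and 10.6 in WT mice 2 and 3. Tregs held 67.5 UMIs of Tlr1 to 38 of Tlr2, a ratio of 1.78, against 1230 to 13321 in monocyte-derived cells, a ratio of 0.0924. Tlr6 reached no more than 7.89 ± 1.71 (n = 7), in Monocytes (P1-P2). The genes most like Tlr1 were Rab20, Ndst2 and Sat1, with r of 0.88, 0.86 and 0.86. Tlr1 and Tlr6 are close paralogs, and 63 cells carried a value of Tlr1 that was not whole, the same 63 cells in which Tlr6 was not whole, so their reads cannot be fully told apart.

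Tlr4, the lipopolysaccharide receptor, was spread over the macrophage annotations and was also present in cells annotated Tumor/stromal. Low-quality microglia had 75.2 ± 43.9 (n = 5), Macrophages (P3) 42.7 ± 9.56 (n = 7), Monocytes (P1-P2) 31.0 ± 8.43 (n = 7) and Macrophages (P5) 29.6 ± 5.20 (n = 7). The low-quality microglia, with 40 UMIs of Tlr4, were at 116 ± 26.7 in 2 KO mice and 47.9 ± 26.6 in 3 WT mice. Over the whole class of microglia, where Tlr4 was not tested, the means were 50.3 ± 29.2 in KO and 28.5 ± 4.62 in WT mice (n = 3 each). Macrophages (P3) exceeded Monocytes (P1-P2) in 7 of 7 mice. Tumor/stromal cells had 28.9 ± 7.62 (n = 5), with values of 38.8 and 19.3 in the KO mice and 31.5, 23.5 and 31.5 in the WT mice that had 20 such cells, while their Tlr2 was at 5.71. Tlr2 in those cells was thus low beside a Tlr4 level near that of the macrophages. Among dendritic cells Tlr4 was at 6.49 in mo-DCs, 2.19 in cDC1 cells and 1.35 in cDC2 cells. The genes most like Tlr4 were Gab1, Socs6 and Snx24, each with an r of 0.93.

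**Figure D1:**
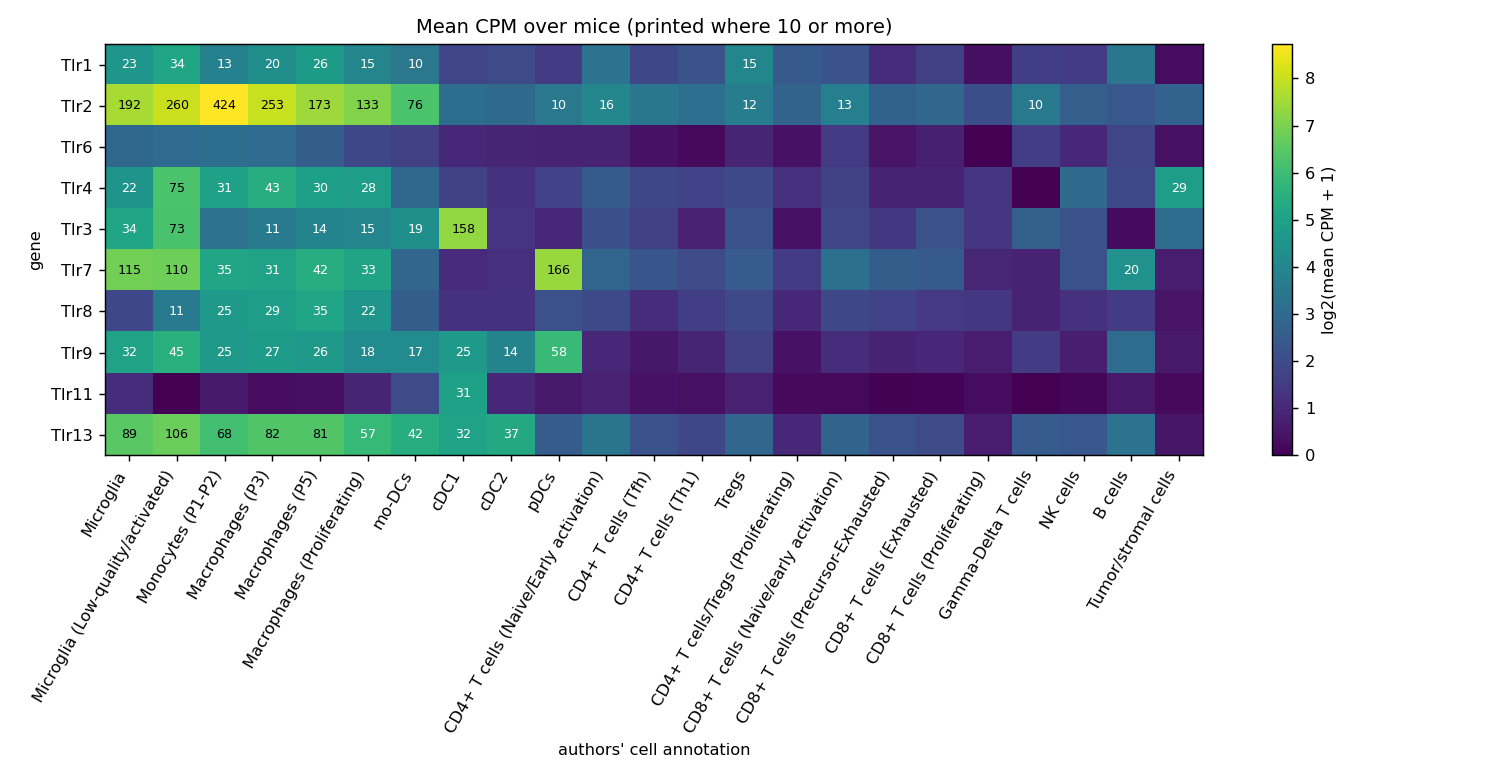
Mean CPM over mice for the 10 Toll-like receptor genes (rows) in the authors' 23 cell annotations (columns), coloured on a log2 scale with 1 added; only mice with at least 20 cells of an annotation enter, which for Microglia are the 3 WT mice. Tlr2 peaks at 424 in monocytes, Tlr3 at 158 and Tlr11 at 31.3 in cDC1 cells, and Tlr7 at 166 in pDCs.

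Tlr3, the receptor of double-stranded RNA, was highest in cDC1 cells, the cross-presenting conventional dendritic cells. The KO mice had 137, 176, 188 and 128 CPM and the WT mice 156, 159 and 160.0. All 7 values were above every value of the other dendritic cell annotations, where Tlr3 averaged 19.2 ± 6.76 in mo-DCs, 1.49 ± 1.39 in cDC2 cells and 0.976 ± 1.45 in pDCs (n = 7 each). Conventional dendritic cells held 76.9% of the 5613 UMIs of Tlr3. Low-quality microglia followed cDC1 cells with 73.5 ± 56.1 (n = 5, from 46 UMIs) and ranged from 0 to 136, and Microglia had 33.7 ± 18.6 (n = 3). Monocytes and macrophages lay between 8.87 and 14.9.

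Tlr11 was likewise highest in cDC1 cells. The KO mice had 32.6, 32.2, 46.7 and 24.1 CPM and the WT mice 18.6, 34.6 and 30.2, each above the mo-DC value of the same mouse (7 of 7). The mean was 31.3 ± 8.80 in cDC1 cells, 3.00 ± 1.87 in mo-DCs and 1.01 ± 1.59 in cDC2 cells (n = 7 each), and every other annotation averaged 1.21 or less. Conventional dendritic cells held 90.4% of the 916 UMIs of Tlr11. Tlr3 and Tlr11 shared their highest annotation, but over the 23 annotations their levels had an r of 0.58, and Tlr3 was also found in microglia. The genes most like Tlr3 were Naaa, Mctp1 and Hps3, with r of 0.91, 0.90 and 0.88, and those most like Tlr11 were Gramd2, Gm12551 and Septin3, with r of 0.93, 0.91 and 0.88.

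Tlr7 and Tlr9, receptors of single-stranded RNA and of CpG DNA, had their highest mean in pDCs, the plasmacytoid dendritic cells known for interferon production. Tlr7 in pDCs was at 189, 124, 144 and 183 CPM in the KO mice and 165, 159 and 199 in the WT mice, with a mean of 166 ± 26.5 (n = 7). Both microglia annotations followed, with 115 ± 15.8 (n = 3) and 109.7 ± 18.5 (n = 5). The pDCs exceeded Microglia in 3 of 3 mice. Tlr7 was at 31.3 to 42.4 in monocytes and macrophages, at 20.4 ± 12.1 (n = 6) in B cells, at 6.40 ± 3.07 (n = 7) in mo-DCs, and at 1.11 and 1.32 in cDC1 and cDC2 cells.

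Tlr9 in pDCs was at 45.3, 59.4, 58.5 and 64.7 in the KO mice and 99.3, 57.9 and 21.0 in the WT mice, so the WT mice spanned the KO range. Tlr9 in the other dendritic cell annotations was at 25.4 ± 8.70 in cDC1 cells, 14.0 ± 5.37 in cDC2 cells and 17.4 ± 8.51 in mo-DCs (n = 7 each). Low-quality microglia had 45.1 ± 31.0 (n = 5), with pDCs above them in 3 of 5 mice, and macrophages 17.7 to 27.1. Among the 3 genes most like Tlr9 was Unc93b1, at an r of 0.97, the chaperone that carries the endosomal receptors out of the endoplasmic reticulum. The others were Rassf4 at 0.98 and the protease gene Ctsh at 0.97.

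**Figure D2:**
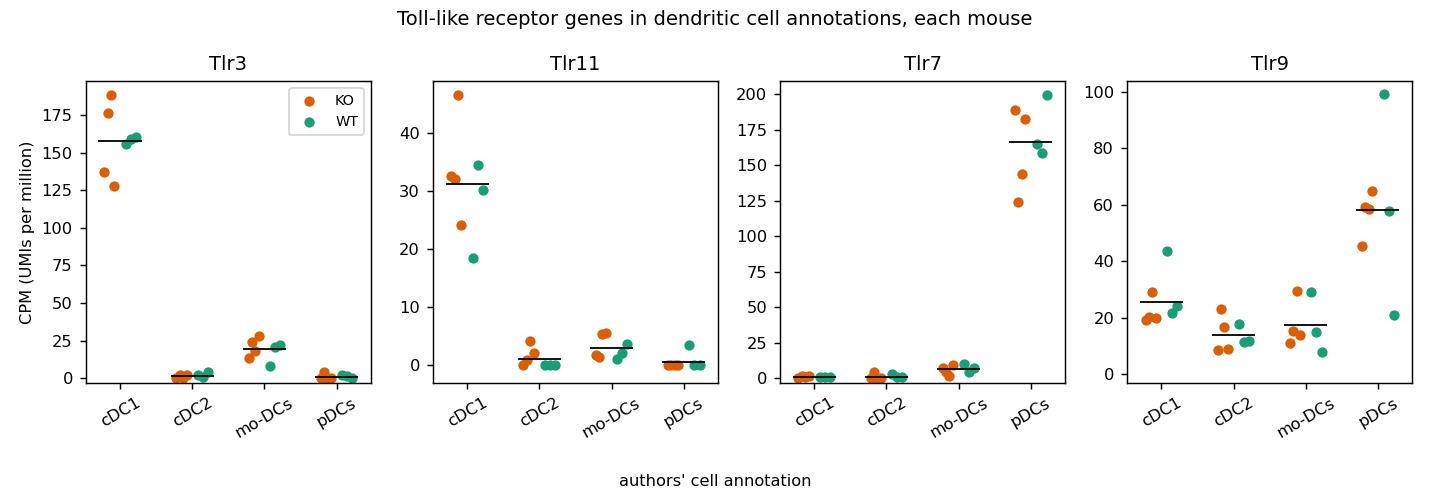
CPM of Tlr3, Tlr11, Tlr7 and Tlr9 in the 4 dendritic cell annotations; each point is a mouse, orange for KO and green for WT, and the line is the mean over mice. Tlr3 (mean 158) and Tlr11 (31.3) are highest in cDC1 cells and Tlr7 (166) in pDCs, while Tlr9 averages 14.0 or more in each of the 4.

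Tlr8, the X-linked neighbour of Tlr7, did not follow it in pDCs and microglia. Macrophages (P5) had 34.7 ± 8.04, Macrophages (P3) 28.7 ± 8.93, Monocytes (P1-P2) 25.1 ± 5.49 (n = 7 each) and Macrophages (Proliferating) 22.3 ± 5.33 (n = 6). Macrophages (P5) exceeded Macrophages (P3) in 6 of 7 mice. Where Tlr7 was highest, Tlr8 was at 3.45 ± 3.17 (n = 7) in pDCs, 2.72 in Microglia and 10.9 ± 10.7 (n = 5) in low-quality microglia, the last from 6 UMIs. Over the 23 annotations Tlr7 and Tlr8 had an r of 0.67, and the genes most like Tlr8 were Sirpb1c, Klra2 and the complement gene C3, at 0.94, 0.93 and 0.93, whereas those most like Tlr7 were the inhibitory receptor gene Lair1, Zfp691 and the purine receptor gene P2ry13, at 0.93, 0.92 and 0.89.

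Tlr13, a receptor of bacterial ribosomal RNA, had 6458 UMIs and was found across all mononuclear phagocytes. It was at 106 ± 29.1 (n = 5) and 89.0 ± 24.2 (n = 3) in the microglia annotations, 57.1 to 82.0 in monocytes and macrophages, 42.5 ± 8.49 in mo-DCs, 37.4 ± 5.94 in cDC2 cells and 31.6 ± 3.24 in cDC1 cells (n = 7 each). The pDCs, which had the most Tlr7 and Tlr9, had 4.87 ± 3.12 (n = 7). The order from mo-DCs to cDC1 cells was narrow, with mo-DCs above cDC2 cells in 5 of 7 mice. The genes most like Tlr13 were F11r, Aif1, a marker of microglia and macrophages, and Sdc3, at 0.96, 0.95 and 0.95. These correlations describe 23 annotations of the same 7 libraries and carry no test.

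The comparison of KO with WT mice asks whether levels of these genes differ between mice with the Sall1CreERT2 driver and mice without it. Every KO mouse carried the driver and no WT mouse did. Loss of Siglece and the driver allele itself therefore cannot be told apart here. The UMIs of the cells of a class were added up within each mouse, and the sums were tested with edgeR's quasi-likelihood test, with p-values adjusted by the Benjamini-Hochberg method over all genes of the class. Of the 10 genes, 5 passed the low-count filter in microglia, 9 in monocyte-derived cells, 8 in mo-DCs, 7 in conventional dendritic cells, 2 in plasmacytoid dendritic cells, 7 in T cells, 2 in tumour or stromal cells and 0 in NK cells and in B cells. None of these 40 gene and class pairs passed an adjusted p of 0.05 with edgeR, and none with DESeq2; 3 had an unadjusted p under 0.05, as did 7.29% of all gene tests in these 7 classes. The share of all tested genes that passed was 0.0415% in microglia, 0.0447% in plasmacytoid dendritic cells, 0.0287% in tumour or stromal cells and 0% in monocyte-derived cells, mo-DCs, conventional dendritic cells and T cells. In fits of single annotations, possible for 21 of the 23, 0 of 62 gene and annotation pairs passed and 4 had an unadjusted p under 0.05. Of all 168939 gene tests, 0.0166% passed and 5.44% had an unadjusted p under 0.05. The lowest adjusted p among the 62 was 0.211.

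**Figure D3:**
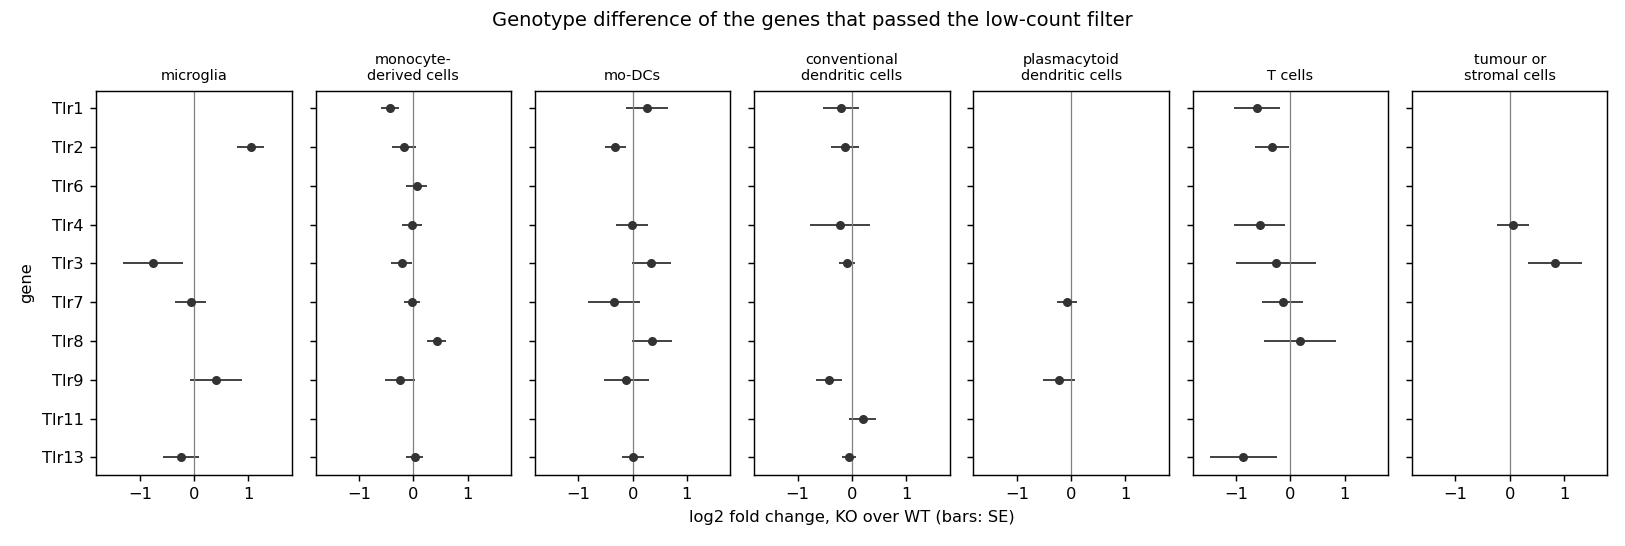
Log2 fold change of KO over WT (points) with its standard error (bars) for each Toll-like receptor gene, in the 7 classes where at least 1 passed the low-count filter; a gene with no point was not tested. The point farthest from 0 is Tlr2 in microglia, at 1.04.

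Tlr2 in microglia had the largest log2 fold change of the 40 pairs tested. Its level was 466, 235 and 399.9 CPM in KO mice 1, 2 and 4, from 87, 12 and 72 UMIs in 30, 21 and 49 cells. The WT mice had 169.7, 200.5 and 191, from 94, 83 and 72 UMIs in 113, 92 and 96 cells. KO mouse 3 had 13 microglia, under the minimum of 20, and was not in the fit; it was at 217 from 8 UMIs. All KO values were above all WT values, with KO mice 2 and 3 close to the highest WT mouse. The log2 fold change was 1.04 (SE 0.25), with an unadjusted p of 0.000241 and an adjusted p of 0.0828 by edgeR's quasi-likelihood test, so it did not pass. Over alternatives its adjusted p ran from 0.0214, without KO mouse 2, to 0.847. The latter came from a fit with a replicate block, which kept only mice 1 and 2 of each genotype. In microglia 18.8% of all tested genes did not overlap between the groups and 11.9% had an unadjusted p under 0.05. By Xist and Y-linked transcripts, KO mice 1 and 2 and WT mouse 3 were female and the other fitted mice male. Sex was thus not balanced between the genotypes.

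By annotation the difference was less even. In Microglia (Low-quality/activated), KO mice 1 and 4 were at 417 and 368 and the WT mice at 172, 117 and 224. KO mice 2 and 3, with 14 and 13 such cells and not in the fit, were at 207 and 217, so the groups overlapped. The fit gave a log2 fold change of 1.17 (SE 0.35) with an adjusted p of 0.211 by edgeR. In Microglia, the KO mice had 10, 7 and 15 cells, too few for a fit, with 497, 260.2 and 426 CPM against 168, 228 and 178 in the WT mice. The other 4 tested genes in microglia had log2 fold changes of -0.76 (SE 0.55) for Tlr3, -0.25 (SE 0.33) for Tlr13, -0.06 (SE 0.28) for Tlr7 and 0.40 (SE 0.48) for Tlr9, and their adjusted p with edgeR was at least 0.62.

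Some other values of the same microglia were set side by side. The summed level of 10 T cell markers was 113 to 183 CPM in the 3 fitted KO mice and 12.6 to 55.6 in the WT mice. That of 8 microglia markers was 5203 to 7869 against 7192 to 9889, with KO mouse 2 above WT mouse 3. The 12 monocyte-derived markers also overlapped, at 914 to 2119 against 1269 to 1525, with KO mouse 1 the highest fitted mouse in these and in Tlr2, and KO mouse 4 the lowest fitted mouse in these and the second in Tlr2. In the T cells of single mice Tlr2 was at 5.13 to 12.99, below every microglia value. The share of microglia annotated as low-quality was 66.7%, 66.7% and 69.4% in the fitted KO mice and 61.1%, 47.8% and 59.4% in the WT mice. The part of these in the Tlr2 difference was not tested.

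The difference of the genotype effects between classes was tested for 4 pairs of classes, with the mouse as a term. Tlr2 in microglia against monocyte-derived cells was the only one of the 10 genes to pass in any pair, with a log2 difference of 1.10 (SE 0.27) and an adjusted p of 0.0159 by edgeR's quasi-likelihood test. Of all genes in that pair, 0.523% passed, against 0.0172% for mo-DCs against monocyte-derived cells, 0% for conventional dendritic cells against monocyte-derived cells and 0.0168% for T cells against mo-DCs. In monocyte-derived cells Tlr2 was at 171, 181, 257 and 275 in the KO mice and 321, 192 and 242 in the WT mice, with a log2 fold change of -0.17 (SE 0.23). The log2 ratio of microglia to monocyte-derived cells within a mouse was 1.45, 0.38 and 0.54 in KO mice 1, 2 and 4 and -0.92, 0.06 and -0.34 in the WT mice, and -0.25 in KO mouse 3, which lies inside the WT range. The fit took a common spread for both classes, drawn from all genes, so its p does not measure how these ratios vary between mice. The call was lost without KO mouse 1 (0.73, adjusted p = 0.501), without WT mouse 1 (0.90, adjusted p = 0.305), without WT mouse 3 (1.10, adjusted p = 0.131), and with a minimum of 10 cells, which brought in KO mouse 3 (0.88, adjusted p = 0.287).

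**Figure D4:**
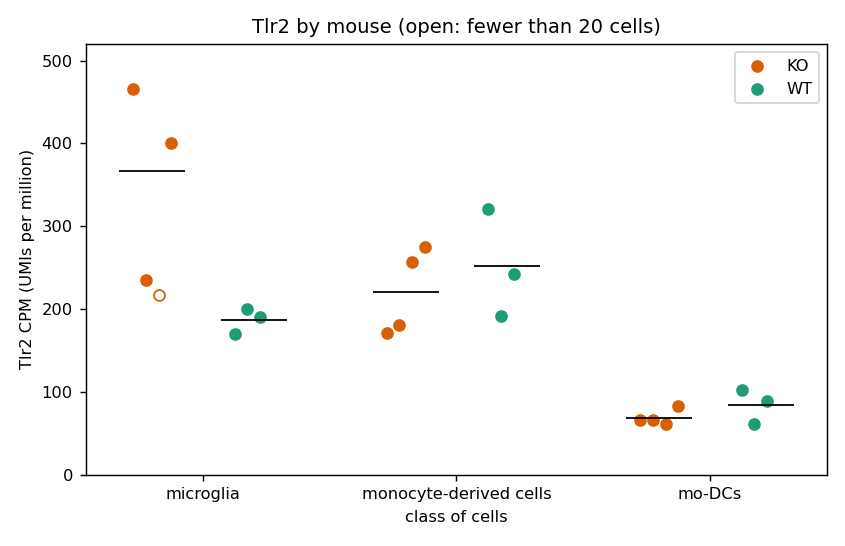
Tlr2 in CPM by mouse (points; orange KO, green WT) in microglia, monocyte-derived cells and mo-DCs; lines are means over mice with at least 20 cells, and the open point is KO mouse 3 with 13 microglia. The KO microglia lie at 217 to 466 and the WT microglia at 169.7 to 200.5, whereas the groups overlap in the other classes.

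In monocyte-derived cells, Tlr8 and Tlr1 had an unadjusted p under 0.05, as did 5.66% of all genes tested there. Tlr8 was at 26.9, 32.1, 38.1 and 40.3 CPM in the KO mice and 26.4, 29.3 and 21.6 in the WT mice. Its log2 fold change was 0.43 (SE 0.17), with an adjusted p of 0.828 by edgeR, and the groups overlapped. By their Xist and Y-linked transcripts KO mice 1 and 2 and WT mouse 3 were female, and these had the lower values of each genotype. With sex as a term the log2 fold change of Tlr8 was 0.48 (SE 0.13, adjusted p = 0.821). Tlr1 was at 14.9, 16.2, 19.4 and 22.8 in the KO mice and 26.3, 24.9 and 23.4 in the WT mice, with no overlap, as for 6.23% of all genes. Its log2 fold change was -0.43 (SE 0.16), with an adjusted p of 0.827 by edgeR. For Tlr1 the female mice had the lower values of each genotype too, with 1 female among the WT mice. An effect of sex on these levels was not tested. In Monocytes (P1-P2) alone the log2 fold changes were -0.16 for Tlr1 and 0.23 for Tlr8. In Macrophages (P5) they were -0.44 (SE 0.19) and 0.46 (SE 0.18), and in Macrophages (P3) -0.55 (SE 0.26) and 0.44 (SE 0.25). In Macrophages (Proliferating) Tlr8 was at 0.28 (SE 0.39). The adjusted p of these annotation fits was at least 0.70 with edgeR. Over the whole class, Tlr7 and Tlr13 had log2 fold changes of -0.03 (SE 0.15) and 0.03 (SE 0.16).

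In tumour or stromal cells, Tlr3 did not overlap between 2 KO and 3 WT mice, nor did 25.2% of all genes, with a log2 fold change of 0.84 (SE 0.49) and an adjusted p of 0.664 by edgeR. It was at 0.24 without KO mouse 4 and at 1.37 without KO mouse 2. Within Macrophages (P5), Tlr3 averaged 12.4 in KO and 17.2 in WT mice with no overlap, as for 7.32% of all genes there, a log2 fold change of -0.45 (SE 0.20, adjusted p = 0.730 by edgeR). In CD4+ T cells (Tfh), Tlr2 averaged 7.57 and 14.4 in 4 KO and 2 WT mice with no overlap, as for 12.8% of all genes there, a log2 fold change of -0.90 (SE 0.49, adjusted p = 1.00). In cDC1 cells, where Tlr3 and Tlr11 had their highest mean CPM, their log2 fold changes were -0.02 (SE 0.13) and 0.24 (SE 0.24). In the joined class of conventional dendritic cells they were -0.10 (SE 0.15) and 0.20 (SE 0.25). Tlr7 and Tlr9, highest in plasmacytoid dendritic cells, were at -0.08 (SE 0.19) and -0.22 (SE 0.29) there.

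Genes that work with the receptors were read from lists. No gene of the 8 lists passed an adjusted p of 0.05 with edgeR in any class, so the following are counts and values. Among receptor partners and chaperones, all 10 tested in microglia had lower fitted values in KO mice, with a median log2 fold change of -0.35 against 0.00 over all genes. They included the endosomal protease gene Ctsl at -1.10 (adjusted p = 0.0575) and Ly86, the partner of the Toll-like protein Cd180, at -0.77 (adjusted p = 0.142). In the same fitted mice the summed microglia markers overlapped, at 5203 to 7869 CPM in KO and 7192 to 9889 in WT mice. The T cell markers were at 113 to 183 in KO and 12.6 to 55.6 in WT mice. The part of both marker sets in this and the other list values in microglia was not tested. In monocyte-derived cells 9 of 12 were lower, with Ly86 at -0.32 and Cd180 at -0.44, and in mo-DCs 6 of 12, with Ly86 at -0.31 and Ctss, another endosomal protease gene, at -0.21. Adaptors had medians of 0.06 in microglia, -0.14 in monocyte-derived cells and -0.22 in mo-DCs. Myd88 was at -1.10 (SE 0.41, adjusted p = 0.265 by edgeR) in microglia, from means of 35.0 CPM in KO and 71.8 in WT mice. In monocyte-derived cells Myd88 was at -0.17 (SE 0.15) and Ticam1 at 0.28. In mo-DCs Slc15a4 was at -0.27 and Ticam2 at -0.36.

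Among kinases and ubiquitin ligases, 8 of 11 tested in microglia were higher in KO mice, with a median of 0.34, and 11 of 13 in monocyte-derived cells, with a median of 0.03. The kinase gene Ikbke was at 1.23 (SE 0.52, adjusted p = 0.324 by edgeR) in microglia, from low means of 40.4 CPM in KO and 16.9 in WT mice. Traf3 was at 1.16 (SE 0.39, adjusted p = 0.208 by edgeR) there. In monocyte-derived cells Ikbke was at -0.48 (SE 0.15) and Ikbkg at 0.32. Irak2 and Irak4 were at -0.28 and -0.39 in mo-DCs. Transcription factors had medians of 0.36 in microglia, 0.02 in monocyte-derived cells, where Irf3 was at -0.39 and Nfkb1 at -0.25, and -0.24 in mo-DCs, where Irf7 was at -1.46 (SE 0.50) and Nfkb2 at -0.62 (SE 0.25). Inhibitors were higher for 6 of 6 in microglia, with Dusp1 at 0.65 and Tnfaip3, a brake on NF-kB, at 0.70. In monocyte-derived cells 8 of 9 were higher, with Sigirr at 0.51 and Tnfaip3 at 0.33, and in mo-DCs 4 of 9, with Tnip1 at -0.62 and Trafd1 at -0.36.

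In mo-DCs the fitted values of interferon response genes lay below 0, and those of the Toll-like receptor genes on both sides of it. All 23 interferon genes had lower fitted values in KO mo-DCs, with a median log2 fold change of -1.23, and 22 had an unadjusted p under 0.05, against 4.22% of all genes being lower at that p; the lowest adjusted p by edgeR was 0.422. Isg20 was at -1.30 (SE 0.22) and Oas2 at -1.28 (SE 0.27). Of 11 other nucleic acid and wall sensors 9 were lower, with the cytosolic sensors Zbp1 at -0.96 and Ddx58 at -1.12. Zbp1, and Irf7 of the transcription factors, are also on the interferon list and are counted among its 23 genes. The 8 Toll-like receptor genes tested in the same cells had a median of 0.00, with 4 higher and 4 lower, from -0.35 for Tlr7 to 0.36 for Tlr8. The interferon list was likewise lower for 23 of 23 genes in conventional dendritic cells (median -0.86, 15 with an unadjusted p under 0.05, against 3.27% of all genes) and in T cells (median -0.88, 18 of 23, against 3.28%). It was lower for 23 of 23 in monocyte-derived cells, with a median of -0.59 and with Ifi44 at -1.41 and Bst2 at -0.77. In that class the median of the 9 tested Toll-like receptor genes was -0.03. The sensors Cgas and Clec7a were at -0.36 and 0.32 there. In microglia 11 of 20 interferon genes were lower, with a median of -0.07. Genes and classes were measured in the same mice, so these counts are not independent results, and the share of all genes is no test of a list.

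The other Toll-like receptor genes in the matrix were Tlr5 and Tlr12. In monocyte-derived cells their log2 fold changes were 0.18 (SE 0.30) and 0.15 (SE 0.48), and in mo-DCs Tlr5 was at -0.42 (SE 0.34). Tlr12, which acts with Tlr11 on profilin, was at 15.6, 15.1, 23.1 and 15.1 CPM in conventional dendritic cells of KO mice and 30.0, 27.8 and 21.8 of WT mice. Its log2 fold change there was -0.67 (SE 0.18), with an unadjusted p of 0.00357 and an adjusted p of 0.638 by edgeR, next to 0.20 for Tlr11. This gene was singled out after its values were seen.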

How the data were processed

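Single-cell 5′ RNA libraries of 7 mice were sequenced (10x, 5′ v2 chemistry per the labels). The submitters' processing notes name STARsolo, STAR 2.7.10a, FastQC 0.11.5 and mm10. The authors deposited a matrix of 55491 genes by 28644 cells whose values are estimated counts of UMIs: 7.51% of the non-zero values are not whole. They also deposited the percent of mitochondrial UMIs and an annotation per cell, used as given. Doublets and filters on cells were left as deposited. Here UMIs were summed per mouse and annotation or class, rounded, and tested with edgeR 4.0.16 (TMM, filterByExpr, robust quasi-likelihood test, 20 or more cells per mouse; R 4.3.3); DESeq2 1.42.0 was an alternative. The scripts were tested on simulated data. The design has 4 KO and 3 WT mice, so precision is limited by the number of mice and, in microglia, by 13 to 113 cells per mouse. Genes and lists were chosen with earlier results of these data known. Named were the 10 genes, with a fold change and test where the unadjusted p was under 0.05 or the groups did not overlap (others as ranges or where a comparison needed them), the 2 genes of each list with the smallest p in monocyte-derived cells and in mo-DCs, and the 3 genes most like each member with a level of at least 20; list genes in microglia were added after their values were seen. One gene named by the last rule is not reported here.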

Additional observations from a re-analysis of the deposited data

Results flagged for a closer look

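Tlr2 had a larger KO over WT effect in microglia than in monocyte-derived cells, by 1.10 on the log2 scale (adjusted p = 0.0159 by edgeR's quasi-likelihood test). It was picked out because the test of the difference itself passed. The ratio within a mouse was higher in 3 of 3 fitted KO mice than in 3 of 3 WT mice, and KO mouse 3, with 13 microglia, lay inside the WT range. The p of the fit rests on a spread drawn from all genes and does not measure how this ratio varies between mice.

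Tlr1 in mo-DCs was at 21.2 CPM in KO mouse 3, whereas the other KO mice lay between 6.68 and 9.09 and the WT mice between 5.83 and 10.2. It was picked out because 1 mouse stood far from the rest of its group. It was the only such value among 19 groups of 4 KO mice tested, and chance gives about 1 in 20.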

How the results depend on the processing

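Toll-like receptor genes called in microglia, 0 in the reported test, were 0 to 1 when each replicate was left out in turn; the 1 was Tlr2 without KO replicate 2, at a log2 fold change of 1.22 (adjusted p = 0.0214). In the other 6 classes with a tested member the count stayed at 0 under the alternatives run. The class-by-genotype difference of Tlr2, 1.10, ran from 0.73 to 1.37 when each replicate was left out, with 0 to 1 genes called. In alternatives chosen after the data were seen, it was at 0.88 with 0 called at a minimum of 10 cells, which adds a mouse with 13 microglia, and at 1.45 (adjusted p = 0.0252) against Monocytes (P1-P2) alone and 0.95 (adjusted p = 0.0472) against Macrophages (P5) alone. The cause of the other losses was not tested. No change of sign occurred in these Tlr2 results, in Tlr1 and Tlr8 in monocyte-derived cells or in Tlr3 in tumour or stromal cells. With the replicate block, Tlr2 in microglia was at 0.95 (adjusted p = 0.847), Tlr8 in monocyte-derived cells at 0.33 and Tlr1 at -0.56, and no member was called. The block kept only replicate numbers present in both genotypes. In microglia this left replicates 1 and 2 of each genotype, without KO replicate 4 and WT replicate 3. Same-numbered mice had correlations of -0.37 to 0.083. These gave no sign of pairing but could not exclude it, as same-numbered mice also differed in sex. Levels pooled over mice moved by less than 1 SD for the highest annotation of all 10 genes.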
